A study of Mus musculus with 24 samples.

Results

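Joint interzone and superficial zone genes were followed across hip cap cartilage and embryonic metatarsals of the mouse under 3 levels of hydrostatic pressure. The genes were 10 rows of a table of 52178 genes, chosen by symbol: Prg4, Gdf5, Gdf6, Erg, Barx1, Osr1, Osr2, Dact2, Col22a1 and Wnt9a. Hip caps, the cartilage caps of the femoral head, were taken from male C57/BL6 mice (C57/BL6J in the methods) aged 4 weeks, with the 2 caps of 1 mouse pooled in a library, and metatarsals came from E15 embryos of the same strain, with 6 bones pooled and the sex unknown. Each tissue was cultured for 24 h, held for 1 h at 0 (control), 5 or 50 MPa, and cultured for a further 24 h, in DMEM for hip caps and in α-MEM for metatarsals. RNA was sequenced from 4 libraries of each of the 6 groups. The labels write the pressure unit as mPa and the methods as MPa, which is used here. Tissue, age and medium differed together between hip caps and metatarsals and cannot be told apart. Sex may have differed with them, since the hip caps were all male and the sex of the metatarsals is unknown.

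A synovial joint begins as an interzone, a band of flattened cells that crosses the cartilage anlage of a limb where the joint will form. Interzone cells make the ligands GDF5, GDF6 and WNT9A and the transcription factors ERG, BARX1, OSR1 and OSR2, and descendants of these cells form the articular cartilage, the synovium and the ligaments. The cells at the surface of articular cartilage, the superficial zone, secrete lubricin, the product of Prg4, which coats the joint surface. Hip caps carry such a surface. Metatarsals of an E15 embryo are cartilage rods with joints still forming at their ends.

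Depth ranged from 4185241 to 25104240 counts per library. The study left out 1 hip cap control (replicate 4) and 1 hip cap library at 50 MPa (replicate 2) as outliers, so that 22 libraries entered the tests. The levels of the 10 genes in both are given beside the comparison of the tissues. Their median distances to the other hip caps were 259 and 294, against 157 to 205 for the 10 hip caps kept. The labelled tissue was checked against its markers. Summed over 10 chondrocyte genes, hip caps held 22259 to 78924 CPM (each count over its library's total, adjusted by the trimmed mean of M values) and metatarsals held 1942 to 5142, led by Col2a1 and Acan. Col10a1 of hypertrophic cartilage ranged from 2554 to 11448 CPM in hip caps and from 0.191 to 30.6 in metatarsals. The metatarsals also carried skeletal muscle RNA (463 to 2559 CPM over 10 genes, against 10.1 to 45.0 in hip caps), so the metatarsal libraries were not of cartilage alone. Summed over 9 connective tissue genes, metatarsal controls held 5284 to 8205 CPM, against 1272 to 2256 in the hip cap controls used. The sums were 5988 to 7987 against 1286 to 9260 at 5 MPa, and 7427 to 8939 against 1898 to 2597 at 50 MPa. The part of muscle and connective tissue content in the differences between the tissues was not tested. In bulk tissue, fewer cells of a type and less RNA per cell cannot be told apart.

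The RefSeq promoter table used here (GRCm38.p6) matched 4 of the 10 genes. The 250 bases before the start site are shown for 3 of them, Barx1, which was higher in hip caps, and Wnt9a and Dact2, which were lower, so that the sequence can be set beside opposite differences. Erg had 3 start sites, which the gene counts do not tell apart. Capitals mark GC boxes (GGGCGG, or CCGCCC where it lies on the other strand, with overlapping matches counted).
Barx1, chr13:48662786-48663035, plus strand: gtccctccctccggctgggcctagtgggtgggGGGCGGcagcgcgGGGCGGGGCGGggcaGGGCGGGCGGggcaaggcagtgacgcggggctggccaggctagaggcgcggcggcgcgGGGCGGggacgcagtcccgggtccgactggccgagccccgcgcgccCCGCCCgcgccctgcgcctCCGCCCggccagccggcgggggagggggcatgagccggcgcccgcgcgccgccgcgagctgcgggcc
Wnt9a, chr11:59306680-59306929, plus strand: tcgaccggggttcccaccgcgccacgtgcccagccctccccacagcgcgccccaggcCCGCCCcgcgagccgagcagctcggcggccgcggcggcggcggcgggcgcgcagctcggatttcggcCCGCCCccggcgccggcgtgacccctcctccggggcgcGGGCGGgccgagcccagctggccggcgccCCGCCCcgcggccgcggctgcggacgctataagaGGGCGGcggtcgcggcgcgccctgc
Dact2, chr17:14203832-14204081, minus strand: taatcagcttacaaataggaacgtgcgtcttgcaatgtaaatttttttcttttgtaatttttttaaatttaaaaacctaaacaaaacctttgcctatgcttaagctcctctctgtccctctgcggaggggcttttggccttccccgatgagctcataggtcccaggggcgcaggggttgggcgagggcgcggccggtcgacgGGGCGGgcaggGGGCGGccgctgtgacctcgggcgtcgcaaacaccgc
A GC box was found in 32.7% of the 32851 promoter windows of the same length. Barx1 held 8, Wnt9a 5 and Dact2 2. The share of G and C was 85.6% for Barx1, 84.4% for Wnt9a and 54% for Dact2, so the GC-rich pair was split between the gene that was higher and a gene that was lower in hip caps. The TATA box (TATAAA on either strand, in 12.4% of all windows) was in none of these 3 windows.

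All 10 genes passed the filter on low counts, which asked for 0.753 CPM, here before the TMM adjustment (count over library total), in enough libraries. Prg4, Gdf5, Erg, Barx1, Osr2 and Col22a1 reached that level in each of the 10 hip caps and 12 metatarsals used. Gdf6 reached it in 0 and Dact2 in 1 of the hip caps, and both passed through the metatarsals. Osr1 reached it in 7 hip caps and Wnt9a in 8. The plot of all levels by library shows these patterns.

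**Figure D1:**
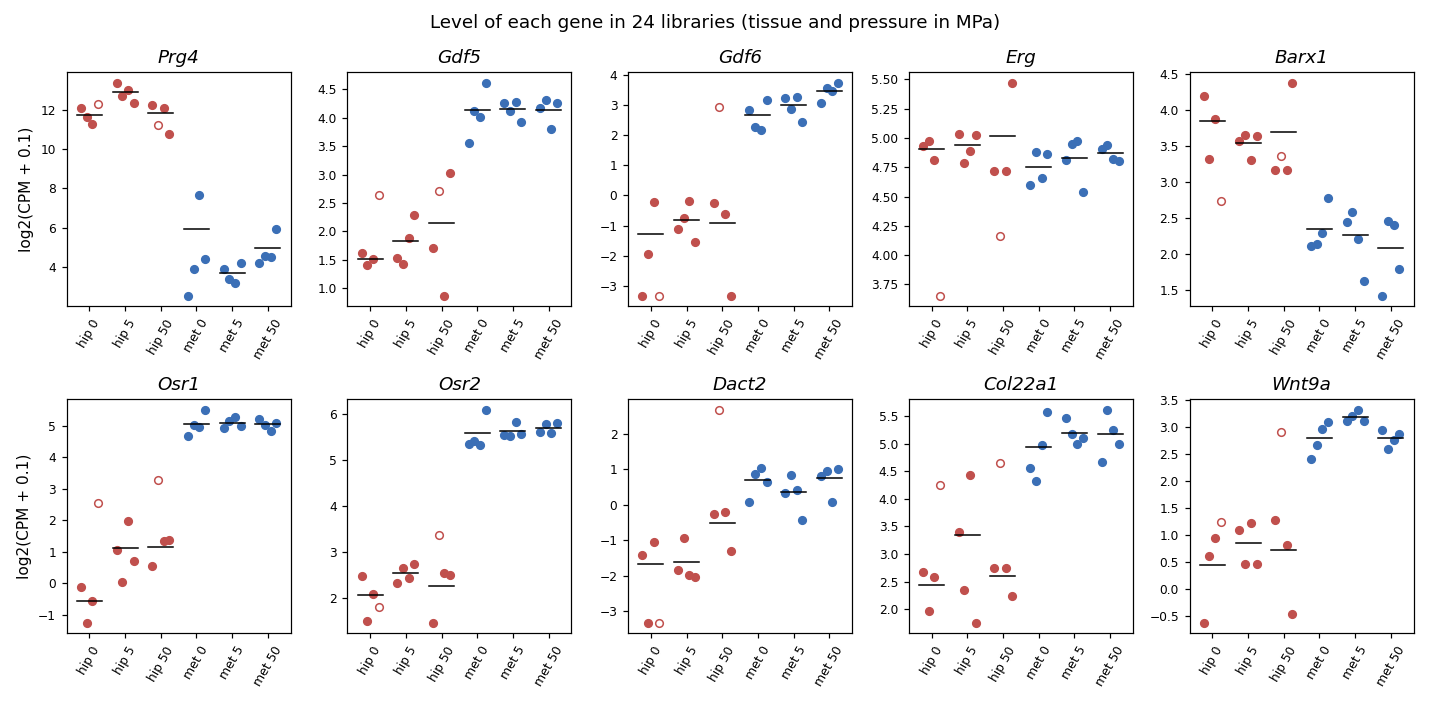
Level of each gene as log2(CPM + 0.1) on the y axis in 24 libraries, by tissue (hip cap in red, metatarsal in blue) and pressure in MPa on the x axis. Filled points are the libraries used, open points the 2 hip caps left out, and lines the mean CPM of the libraries used. Prg4 and Barx1 lie higher in hip caps, Erg lies level, and the other 7 genes lie lower in the hip caps used.

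Levels per kilobase of the longest coding transcript set the genes in a different order in each tissue. In hip cap controls Prg4 led with 785 ± 228 CPM per kb (SD, n = 3), followed by Barx1 (10.2 ± 2.99) and Erg (9.21 ± 0.531), which did not differ beyond their spread. Osr2 (2.37 ± 0.792) and Gdf5 (1.19 ± 0.0956) stood next, each apart from its neighbours by more than their SDs. Col22a1 (0.605 ± 0.149), Wnt9a (0.380 ± 0.196), Osr1 (0.282 ± 0.124), Gdf6 (0.0869 ± 0.114) and Dact2 (0.0670 ± 0.0604) followed, each within the spread of its neighbour. In metatarsal controls Osr2 (27.7 ± 7.89 CPM per kb, n = 4) and Osr1 (16.6 ± 4.16) led, followed by Prg4 (14.2 ± 22.1), whose SD was wider than its mean, Erg (8.27 ± 0.816) and Gdf5 (7.50 ± 2.29). Then came Barx1 (3.58 ± 0.838), Col22a1 (3.48 ± 1.39), Wnt9a (2.07 ± 0.436), Gdf6 (1.77 ± 0.585) and Dact2 (0.468 ± 0.130). Of these neighbours, Gdf5 and Barx1 lay apart by more than their SDs, and so did Gdf6 and Dact2.

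The first question was which of the genes differ between hip caps and metatarsals at the same pressure. At 0 MPa, 2 of the 10 genes were higher in hip caps (Prg4 and Barx1), 7 were lower (Gdf5, Gdf6, Osr1, Osr2, Dact2, Col22a1 and Wnt9a), and Erg did not pass the threshold of an adjusted p of 0.05 in edgeR's quasi-likelihood test. Gdf6 and Dact2 passed the filter on low counts only through the metatarsals, so neither could well count as higher in hip caps. The counts and medians given here include both. Over all 21283 genes tested, 14.1% were higher and 15.9% lower. The counts at 5 MPa were again 2 higher and 7 lower, with 18.8% and 19.1% of all genes. At 50 MPa they were 2 higher and 6 lower, with 10.1% and 9.58% of all genes, and Dact2 no longer passed. The median log2 fold change of the 10 genes was -2.36, -2.37 and -2.18 at the 3 pressures, against -0.08, -0.08 and -0.01 over all genes. With library sizes alone as the scaling, 712 genes were higher and 8217 lower at 0 MPa, against 2994 and 3378 with the scaling used here, and the median over all genes moved to -0.97.

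The comparison at 5 MPa was the cleanest of the 3, since its 8 libraries were all stranded and, as far as the sources give it, of the same sequencing run. It kept 9 of the 10 genes past the threshold whichever single library was left out. At 0 MPa the count fell to 5 without metatarsal control replicate 1, and at 50 MPa it fell from 8 to 3 without metatarsal replicate 4. Those 2 libraries were the only metatarsals of run 1, the run that holds all hip caps used at 0 and 50 MPa.

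**Figure D2:**
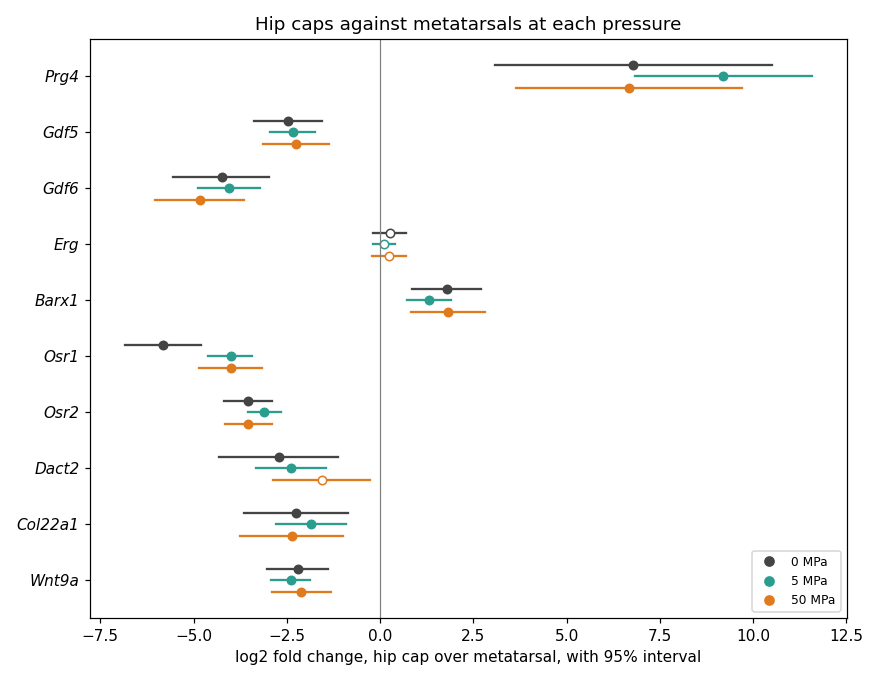
Log2 fold change of each gene, hip cap over metatarsal, on the x axis at 0, 5 and 50 MPa, with 95% confidence intervals as lines. Filled points passed an adjusted p of 0.05. Prg4 has the widest intervals and the highest values (6.67 to 9.20), and Erg lies near 0 at each pressure.

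Prg4 encodes lubricin. In the hip cap controls used it measured 4388, 3174 and 2471 CPM, and in the metatarsal controls 5.74, 14.8, 201 and 20.9 CPM. Hip caps at 5 MPa held 10613, 6678, 8210 and 5149 CPM and the metatarsals 14.9, 10.2, 8.83 and 18.0. At 50 MPa the hip caps held 4778, 4262 and 1751 CPM and the metatarsals 18.1, 23.3, 22.4 and 61.3. Every hip cap was above every metatarsal at each pressure, as for 19.6%, 19.2% and 18.4% of all genes, and the hip caps left out (4952 CPM for the control, 2378 at 50 MPa) were also above them. The log2 fold change was 9.20 ± 1.12 (SE; adjusted p = 8.5e-06 by edgeR) at 5 MPa, 6.78 ± 1.74 (adjusted p = 0.00849) at 0 MPa and 6.67 ± 1.42 (adjusted p = 0.00338) at 50 MPa. The value at 0 MPa was 3.45 with an adjusted p of 0.159 without metatarsal control replicate 1, which held the lowest level, and 9.36 without hip cap control replicate 3. At 50 MPa it was 11.75 without metatarsal replicate 4.

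The spread of Prg4 differed between the tissues as well. Its SD within groups on the log2 scale was 0.56 in hip caps and 1.36 in metatarsals, where the median gene had 0.48 and 0.28. Metatarsal control replicate 3, with 201 CPM, stood far above the other 3 controls (5.74 to 20.9). That library also had the highest chondrocyte sum among the metatarsals (5142 CPM, others 1942 to 3859) and the highest hypertrophic sum (336 CPM over 6 genes), although metatarsal replicate 1 at 5 MPa had nearly the same sum (321 CPM) with 14.9 CPM of Prg4. The part of the tissue content in the Prg4 level of that library was not tested.

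The ligand genes Gdf5 and Gdf6 were lower in hip caps. Gdf5, which drives early joint formation, measured 2.99, 2.55 and 2.76 CPM in hip cap controls and 11.7, 17.3, 16.1 and 24.5 in metatarsal controls. Hip caps at 5 MPa held 2.80, 2.60, 3.61 and 4.79 CPM and the metatarsals 19.1, 17.2, 19.3 and 15.1. No hip cap reached a metatarsal at any pressure, as for 22.8%, 21.5% and 21.4% of all genes. At 50 MPa, 1 hip cap (replicate 4, with 8.05 CPM) stood above the other 2 used (3.16 and 1.73). The hip caps left out held 6.15 CPM (control) and 6.45 CPM (50 MPa), also below the metatarsals. The log2 fold change of Gdf5 was -2.47 ± 0.44 at 0 MPa, -2.34 ± 0.29 at 5 MPa and -2.26 ± 0.42 at 50 MPa, which is 5.53-, 5.07- and 4.80-fold lower (adjusted p = 2.4e-04, 1.4e-06 and 5.3e-04 by edgeR). The value at 50 MPa was -1.60 with an adjusted p of 0.304 without metatarsal replicate 4.

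Gdf6, a close relative of Gdf5 expressed at other joints, was near the limit of detection in hip caps. The controls held 0, 0.159 and 0.762 CPM, from 0, 1 and 8 counts, against 7.08, 4.76, 4.40 and 8.80 CPM in metatarsal controls. At 5 MPa the hip caps held 0.357, 0.492, 0.773 and 0.244 CPM against 5.31 to 9.42 in metatarsals, and at 50 MPa 0.738, 0.555 and 0 against 8.26 to 13.3. The fitted log2 fold changes of -4.25 ± 0.62, -4.04 ± 0.39 and -4.84 ± 0.58 (adjusted p = 2.3e-05, 5.3e-08 and 3.0e-06 by edgeR) rest on 0 to 15 counts per hip cap, so their size depends on how low counts are smoothed. The control left out held 0 CPM. The hip cap left out at 50 MPa held 7.55 CPM, which is within the range of the metatarsals as a whole.

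Wnt9a, a ligand of the canonical WNT pathway that holds interzone cells back from becoming cartilage, measured 0.544, 1.43 and 1.81 CPM in hip cap controls and 5.17, 6.26, 7.66 and 8.41 in metatarsal controls. At 5 MPa the hip caps held 2.02, 1.27, 2.22 and 1.27 CPM and the metatarsals 8.53, 9.08, 9.89 and 8.54. At 50 MPa the hip caps held 2.32, 1.66 and 0.619 CPM and the metatarsals 7.60, 5.92, 6.67 and 7.24. The groups did not overlap at any pressure among the libraries used, as for 22.8%, 21.5% and 21.4% of all genes. The hip cap left out at 50 MPa, however, held 7.39 CPM, and the control left out 2.26. Wnt9a was 4.61-fold lower in hip caps at 0 MPa, 5.28-fold lower at 5 MPa and 4.31-fold lower at 50 MPa (adjusted p = 2.3e-04, 1.4e-07 and 3.1e-04 by edgeR). At 50 MPa the log2 fold change of -2.11 became -1.18, with an adjusted p of 0.209, when all 24 libraries were fitted.

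Dact2 encodes a cytoplasmic protein of the dapper family, which binds Dishevelled and acts on WNT and TGFβ signalling. It was low in both tissues, at 0.272, 0 and 0.381 CPM in hip cap controls, 0.957, 1.71, 1.94 and 1.47 in metatarsal controls, 0.146 to 0.422 in hip caps and 0.638 to 1.68 in metatarsals at 5 MPa, and 0.738, 0.763 and 0.309 against 1.65, 1.83, 0.961 and 1.90 at 50 MPa. These hip cap values come from 0 to 11 counts. The log2 fold change was -2.72 ± 0.76 at 0 MPa (adjusted p = 0.0103 by edgeR), -2.39 ± 0.45 at 5 MPa (adjusted p = 2.3e-04) and -1.56 ± 0.62 at 50 MPa (adjusted p = 0.0872). With all 24 libraries and no batch terms the value at 50 MPa was 0.35. The hip cap left out at 50 MPa held 6.29 CPM and the control left out 0.

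The transcription factors Osr1 and Osr2, zinc finger proteins of early limb mesenchyme and forming joints, were the most abundant of the 10 genes per kilobase in metatarsals. Osr1 measured 25.6, 32.1, 30.6 and 45.2 CPM in metatarsal controls and 0.815, 0.318 and 0.572 in hip cap controls. It was 56.8-fold lower in hip caps at 0 MPa (log2 fold change -5.83 ± 0.49, adjusted p = 3.5e-08 by edgeR), from 2 to 6 counts per hip cap control. At 5 MPa it was 16.2-fold lower (adjusted p = 7.5e-10) and at 50 MPa 16.1-fold lower (adjusted p = 5.5e-07). The hip cap control left out held 5.73 CPM, and with all 24 libraries the log2 fold change at 0 MPa shrank to -3.87 (adjusted p = 1.3e-04 by edgeR). At 50 MPa the hip cap left out held 9.59 CPM.

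Osr2 was 11.6-fold lower in hip caps at 0 MPa, 8.59-fold lower at 5 MPa and 11.6-fold lower at 50 MPa (adjusted p = 3.1e-08, 2.9e-10 and 4.0e-08 by edgeR). Its controls held 5.44, 2.71 and 4.10 CPM in hip caps and 40.6, 42.7, 39.7 and 68.1 in metatarsals, and neither pressure group departed from these ranges by much, with 4.88 to 6.54 CPM at 5 MPa and 2.64 to 5.75 at 50 MPa in hip caps, and 45.8 to 56.8 and 47.6 to 55.5 in metatarsals. Its SD within groups was 0.44 in hip caps and 0.24 in metatarsals on the log2 scale. The hip caps left out held 3.39 CPM (control) and 10.2 CPM (50 MPa), below every metatarsal. Osr2 passed in all 3 comparisons under each alternative and each left-out library.

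Barx1, a homeobox factor that marks joint-forming and other mesenchyme, was the other gene that was higher in hip caps. It measured 18.2, 9.87 and 14.6 CPM in hip cap controls and 4.21, 4.28, 4.80 and 6.72 in metatarsal controls. At 5 MPa it measured 11.7, 12.5, 9.74 and 12.3 CPM in hip caps and 5.34, 5.89, 4.53 and 2.98 in metatarsals, and at 50 MPa 8.86, 8.87 and 20.7 against 2.58, 5.39, 5.17 and 3.35. The groups used did not overlap at any pressure, as for 19.6%, 19.2% and 18.4% of all genes. The control left out, however, held 6.57 CPM, below the highest metatarsal control, and the hip cap left out at 50 MPa held 10.2 CPM. Barx1 was 3.43-fold higher at 0 MPa, 2.47-fold at 5 MPa and 3.53-fold at 50 MPa (adjusted p = 0.00475, 9.6e-04 and 0.00812 by edgeR). Scaled by library size alone the log2 values dropped from 1.78, 1.30 and 1.82 to 0.90, 0.70 and 0.75, with adjusted p of 0.121, 0.0639 and 0.238.

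Erg, an ETS family factor of the interzone and of permanent cartilage that endothelial cells also express, was level between the tissues. Its values ran from 26.2 to 44.3 CPM in the hip caps used and from 23.2 to 31.3 in metatarsals, and the hip caps left out were lower, at 12.5 and 17.8 CPM. The log2 fold change was 0.26 at 0 MPa (95% interval -0.18 to 0.69), 0.11 at 5 MPa (-0.19 to 0.41) and 0.24 at 50 MPa (-0.21 to 0.69), with adjusted p of 0.384, 0.574 and 0.501 by edgeR. The direction rests on the scaling: with library sizes alone the values were -0.65, -0.52 and -0.77, of which those at 5 and 50 MPa passed. Of 14 endothelial markers, led by Cdh5 and Pecam1, 0 were higher and 1 lower in hip caps at 0 MPa and none passed at the other pressures. Erg had the smallest SD within groups of the 10 genes, 0.25 in hip caps and 0.15 in metatarsals.

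Col22a1 encodes a collagen of tissue junctions, including those of articular cartilage with synovial fluid and of muscle with tendon. Hip cap controls held 6.25, 3.82 and 5.91 CPM and metatarsal controls 23.5, 19.9, 31.6 and 47.5. At 5 MPa the hip caps held 10.4, 4.99, 21.6 and 3.27 CPM against 43.9, 36.2, 31.7 and 34.3, and at 50 MPa 6.64, 6.59 and 4.64 against 25.4, 49.0, 38.2 and 31.7. The hip caps left out held 18.9 CPM (control) and 25.0 CPM (50 MPa), close to the lowest metatarsals. Col22a1 was 4.77-, 3.61- and 5.16-fold lower in hip caps (adjusted p = 0.0160, 0.00310 and 0.0161 by edgeR). Its adjusted p at 0 MPa rose above 0.05 when any of 4 libraries was left out (hip cap control replicate 2 or 3, metatarsal control replicate 1, metatarsal replicate 4 at 50 MPa), with values of 0.0535 to 0.204.

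Genes of the same systems that are not among the 10 were divided between the tissues. Of 15 other interzone and joint genes, 14 could be tested. At 0 MPa hip caps had more RNA of 6 and less of 5 of them, at 5 MPa more of 7 and less of 6, and at 50 MPa more of 5 and less of 5. The highest at 5 MPa were Chrdl2, a BMP antagonist (5.42-fold; 13.3 ± 2.65 against 2.46 ± 0.705 CPM), and Cd44, the hyaluronan receptor (2.51-fold; 65.2 ± 23.2 against 26.0 ± 2.14). The lowest were Sfrp2, a secreted WNT antagonist (29.2-fold lower; 2.15 ± 1.49 against 63.8 ± 13.9 CPM), and Dcx, a microtubule-binding protein of interzone cells (9.80-fold lower; 1.26 ± 0.469 against 12.3 ± 1.41). The median of this list at 5 MPa was a log2 fold change of 0.27.

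The 14 other superficial zone and lubrication genes included 5 that were higher and 2 that were lower at 0 MPa, 7 and 3 at 5 MPa, and 5 and 1 at 50 MPa. In the comparison at 5 MPa, the matrix protein gene Cilp was 13.4-fold higher (236 ± 119 against 17.6 ± 4.17 CPM) and Clu, which encodes the secreted chaperone clusterin, was 11.6-fold higher (270 ± 71.5 against 23.4 ± 3.40). The growth factor receptor gene Egfr was 2.14-fold lower (54.1 ± 13.6 against 116 ± 4.88 CPM) and the hyaluronan synthase gene Has2 1.61-fold lower. In this comparison Prg4, at 589-fold, was far above the highest of these.

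The pathway genes downstream of the ligands were likewise split. Of 18 genes for GDF and BMP receptors and their signal transduction, 4 were higher and 6 lower at 0 MPa, 6 and 4 at 5 MPa, and 3 and 4 at 50 MPa. Bmpr1b, the type I receptor that GDF5 prefers, was lower in hip caps at each pressure, 9.94-fold at 0 MPa (2.36 ± 0.538 against 23.4 ± 5.20 CPM), 7.40-fold at 5 MPa and 6.28-fold at 50 MPa. The BMP antagonist gene Grem1 was 3.95-fold and 4.73-fold higher at 5 and 50 MPa, and Nog, which encodes noggin and stands in both the interzone and the BMP list, was 4.01-fold and 3.20-fold higher at 0 and 50 MPa.

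Of 19 genes for canonical WNT signal transduction and its targets, 5 were higher and 5 lower at 0 MPa, 5 and 6 at 5 MPa, and 3 and 7 at 50 MPa. Lef1, a transcription factor that works with β-catenin, was 8.65-fold higher in hip caps at 0 MPa (69.3 ± 10.9 against 11.0 ± 2.54 CPM), 7.74-fold at 5 MPa and 9.57-fold at 50 MPa. Nkd1, a feedback inhibitor of the pathway, was 2.90-fold, 3.61-fold and 5.01-fold lower. Axin2, another feedback inhibitor, was 3.03-fold lower at 5 MPa (5.57 ± 0.243 against 16.9 ± 1.49 CPM). Adjusted p-values of the genes named from these 4 lists ran up to 0.0359 by edgeR.

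The second question was whether pressure changed the genes within a tissue. None of the 10 passed an adjusted p of 0.05 in edgeR's test in any of the 4 comparisons. Over all genes, 0.0188% passed in hip caps at 5 MPa, 5.18% in hip caps at 50 MPa, and 0% in metatarsals at 5 MPa and at 50 MPa. At an unadjusted p under 0.05, 1 of the 10 was reached in hip caps at each pressure (Osr1), 1 in metatarsals at 5 MPa (Prg4) and 0 in metatarsals at 50 MPa. Over all 21283 genes the same unadjusted limit took in 3145 in hip caps at the lower pressure and 4819 in those at the higher. In metatarsals it took in 689 genes at 5 MPa and 828 at 50 MPa, and DESeq2 called 2 genes higher and 15 lower at 5 MPa and 3 higher and 11 lower at 50 MPa, with none of the 10 among them. The fit shares its estimate of spread between tissues whose median dispersion differed, 0.106 in hip caps alone and 0.0349 in metatarsals alone. Fitted alone with batch terms, metatarsals had 2241 and 2184 of 19382 genes under the unadjusted limit at 5 and 50 MPa. That fit called 2 genes higher and 10 lower at 5 MPa, and 1 and 5 at 50 MPa. Both pressures of a tissue share its controls, so their values are not independent.

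**Figure D3:**
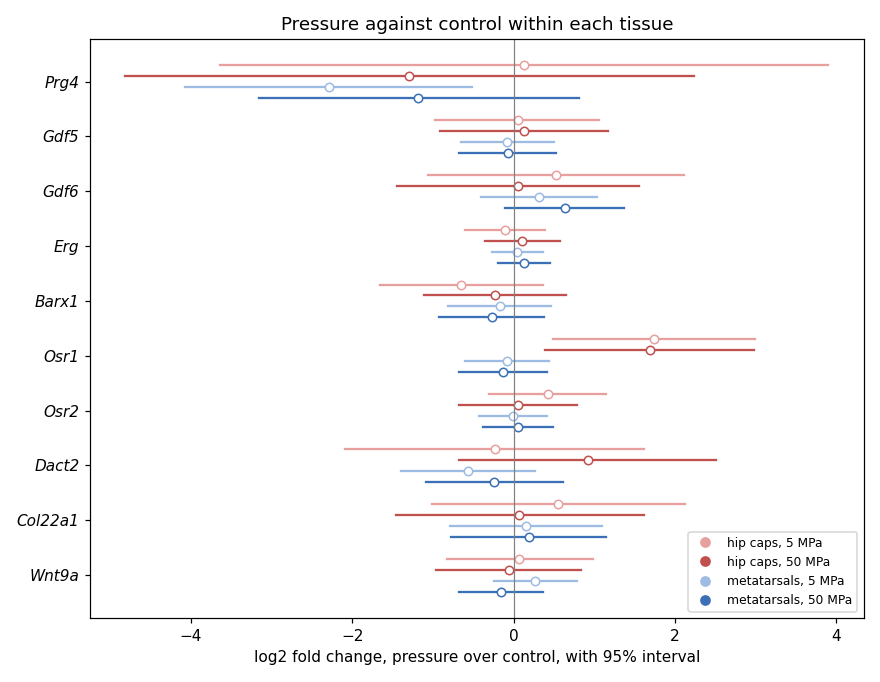
Log2 fold change of each gene, pressure over control, on the x axis for hip caps and metatarsals at 5 and 50 MPa, with 95% confidence intervals as lines. Open points did not pass an adjusted p of 0.05, which holds for every point. The intervals of Osr1 in hip caps (from 0.49 and 0.39 upward) and of Prg4 in metatarsals at 5 MPa lie to 1 side of 0, and those of Prg4 in hip caps are the widest.

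Osr1 was the member with the clearest shift in hip caps. The controls used held 0.815, 0.318 and 0.572 CPM (3, 2 and 6 counts), the hip caps at 5 MPa 1.96, 0.914, 3.81 and 1.51 CPM, and those at 50 MPa 1.37, 2.43 and 2.48. Every pressed hip cap used was above every control used, as for 8.40% of all genes at 5 MPa and 8.19% at 50 MPa. The log2 fold change was 1.74 ± 0.60 at 5 MPa (adjusted p = 0.201 by edgeR) and 1.69 ± 0.62 at 50 MPa (adjusted p = 0.110 by edgeR). DESeq2 gave 1.75 and 1.71 with adjusted p of 0.0819 and 0.0485.

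The control left out goes against that shift. It held 5.73 CPM of Osr1 from 81 counts, above every pressed hip cap used, and with all 24 libraries the log2 fold change at 5 MPa was -0.44 (adjusted p = 0.775 by edgeR) and at 50 MPa 1.13 (adjusted p = 0.504). The fit of all 24 also adds the hip cap left out at 50 MPa, which goes with the shift (9.59 CPM of Osr1 from 61 counts). The control left out was the only hip cap control of run 2, the run of all 4 hip caps at 5 MPa. Within run 1 alone, the value at 50 MPa was 1.89 ± 0.70 (adjusted p = 0.424 by edgeR), in a fit without batch terms. The hip caps at 50 MPa were all unstranded, while control replicates 1 and 2 were stranded and control replicate 3 was not. Library type thus went largely with pressure in that fit. Run and pressure cannot be told apart in hip caps at 5 MPa except through the metatarsals.

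In metatarsals Osr1 lay between 25.6 and 45.2 CPM in the controls, 30.2 and 38.6 at 5 MPa, and 28.1 and 36.7 at 50 MPa, with log2 fold changes of -0.08 ± 0.25 and -0.13 ± 0.26. The difference in response between the tissues was 1.81 ± 0.62 at 5 MPa (adjusted p = 0.324 by edgeR) and 1.81 ± 0.63 at 50 MPa (adjusted p = 0.138 by edgeR). None of the 10 genes passed in either test of this difference, where 0.0188% and 0.132% of all genes did.

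Osr1 and Col22a1 in hip caps were set beside markers of connective tissue. The sum of 9 connective tissue genes, led by Col1a1 and Col1a2, ran from 1272 to 2256 CPM in the controls used, from 1898 to 2597 at 50 MPa, and was 9260 in hip cap replicate 3 at 5 MPa, where the other 3 held 1286 to 2951. That replicate had the highest Osr1 (3.81 CPM) and Col22a1 (21.6 CPM) among the hip caps used, and also the highest sums of 14 endothelial genes (371 CPM) and of 5 macrophage genes, led by Lyz2 and Csf1r (666 CPM). The control left out held 6607, 314 and 776 CPM for the 3 lists, 5.73 CPM of Osr1 and 18.9 of Col22a1. The hip cap left out at 50 MPa had the most Osr1 (9.59 CPM) and Col22a1 (25.0 CPM) of all 12 hip caps with a connective tissue sum of 1111 CPM, below every hip cap used. None of the 9 genes was at 0 in any of the hip caps. Without hip cap replicate 3 at 5 MPa, the log2 fold change of Osr1 was 1.32 at 5 MPa, and at 50 MPa it was 1.66 with an adjusted p of 0.0322 by edgeR. The part of connective tissue content in these levels was not tested.

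**Figure D4:**
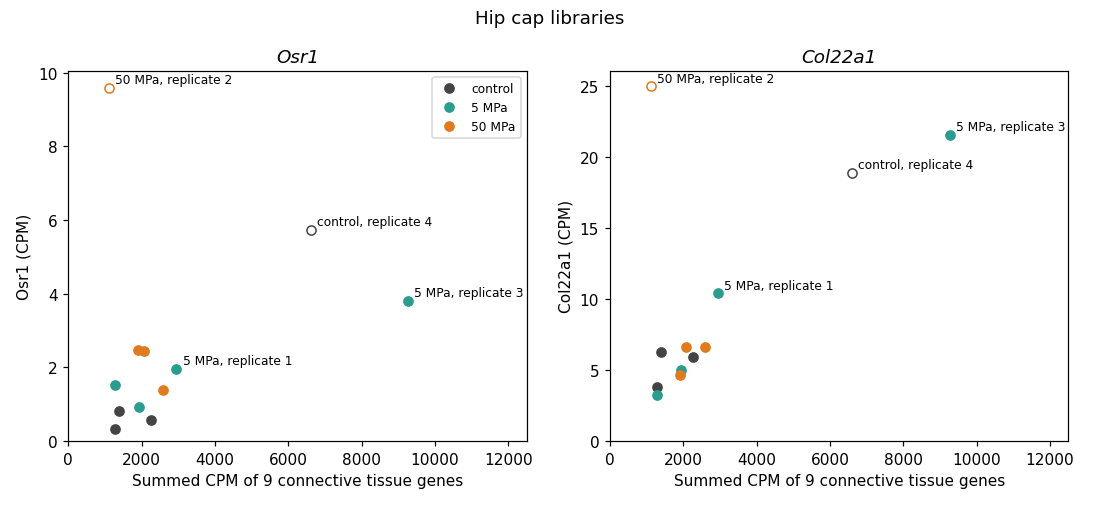
Osr1 (left) and Col22a1 (right) in CPM on the y axis against the summed CPM of 9 connective tissue genes on the x axis in 12 hip cap libraries, coloured by pressure; open points are the 2 libraries left out. Replicate 3 at 5 MPa and control replicate 4 lie to the right of the other libraries, near mid height for Osr1 and high for Col22a1. Replicate 2 at 50 MPa lies at the upper left of each panel.

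Prg4 under pressure could not be resolved in hip caps. All 4 hip caps at 5 MPa (5149 to 10613 CPM) were above the 3 controls used (2471 to 4388 CPM), as for 8.40% of all genes, and above the one left out (4952 CPM), yet the fitted log2 fold change was 0.13 with a 95% interval from -3.64 to 3.90, in a fit whose terms for run and library type use the metatarsals too. With hip caps alone and no batch terms it was 1.21 ± 0.40 (adjusted p = 0.159 by edgeR). Leaving out single libraries moved the value from -2.76 (without hip cap control replicate 3) to 3.22 (without metatarsal control replicate 1). At 50 MPa the value was -1.29 ± 1.65 (adjusted p = 0.690 by edgeR), and within run 1 alone 0.11 ± 0.45 (adjusted p = 0.951 by edgeR). The fit within run 1 had no term for library type, which went largely with pressure there.

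In metatarsals Prg4 gave a log2 fold change of -2.29 ± 0.83 at 5 MPa (adjusted p = 1.00 by edgeR) and -1.18 ± 0.93 at 50 MPa (adjusted p = 1.00). Both values rest on control replicate 3. Without it they were -0.12 and 0.86, and the pressed metatarsals at 5 MPa (8.83 to 18.0 CPM) lay within the range of the other 3 controls (5.74 to 20.9 CPM). Wnt9a was higher in all 4 metatarsals at 5 MPa (8.53 to 9.89 CPM) than in the 4 controls (5.17 to 8.41 CPM), as for 1.65% of all genes, with a log2 fold change of 0.27 ± 0.25 (adjusted p = 1.00). Gdf6 in metatarsals went from 4.40 to 8.80 CPM in controls to 5.31 to 9.42 at 5 MPa and 8.26 to 13.3 at 50 MPa, where the log2 fold change was 0.64 ± 0.35 (adjusted p = 1.00 by edgeR), and it was 0.79 among the stranded metatarsals of run 2 alone.

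The remaining genes had log2 fold changes under pressure between -0.65 (Barx1 in hip caps at 5 MPa) and 0.92 (Dact2 in hip caps at 50 MPa). The intervals were narrowest for Erg, from -0.60 to 0.39 in hip caps at 5 MPa and from -0.27 to 0.36 in metatarsals at 5 MPa. For Gdf5 they ran from -0.97 to 1.06 and from -0.65 to 0.50 in the same comparisons. Medians over the 10 genes were 0.10 and 0.07 in hip caps at 5 and 50 MPa and -0.04 and -0.10 in metatarsals, against 0.01, 0.02, -0.00 and 0.00 over all genes.

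Of the other genes of these systems, some passed the threshold in hip caps at 50 MPa, where 3.32% of all genes were higher and 1.86% lower. There, 1 of 14 other interzone genes was lower (Tgfbr2, a TGFβ receptor, 1.51-fold), 2 of 14 superficial zone genes were higher (Egfr and Tgfbr1, 2.26-fold each), 1 of 18 BMP genes was higher and 1 lower (Id2 at 2.26-fold, and Id1, a target of BMP signalling, 1.97-fold lower), and 4 of 19 WNT genes were lower, led by Fzd9, a WNT receptor (2.15-fold), and Nkd1 (1.80-fold). Adjusted p-values of those named ran from 0.0166 to 0.0436 by edgeR. In the same comparison 2 of 10 chondrocyte markers were lower, and their sum ran from 33104 to 38007 CPM against 49600 to 78924 in the controls. None of these 4 lists had a gene past the threshold in hip caps at 5 MPa or in metatarsals. The number of all genes called in hip caps at 50 MPa depended on the fit. Without batch terms 440 were higher and 410 lower, and with all 24 libraries 2 and 0. In hip caps alone without batch terms 0 of 18001 genes passed, and within run 1 alone 0 of 16220. The hip caps at 50 MPa were all unstranded, while control replicates 1 and 2 were stranded.

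The genes most like Prg4 and Gdf5 were sought among 15630 named genes by Pearson's r of log2 CPM, as a description. Over the 12 metatarsals, which share the spread of control replicate 3, Prg4 was nearest to Zfp469 (r = 0.89), Mtor (0.88) and Rin3 (0.88), and these fell to 0.72, 0.81 and 0.61 without the 2 libraries farthest from the median. Over the 10 hip caps used it was nearest to Ces2g (0.96), Tirap (0.93) and Shld1 (0.92). These were 0.92, 0.88 and 0.82 without the 2 libraries farthest from the median. The hip caps at 5 MPa were of run 2 and the others used of run 1, so r in hip caps can follow run. Gdf5 was nearest to Foxo6 (0.97), Cnnm2 (0.93) and Ssh3 (0.93) in metatarsals and to Aldoa (0.94), Dda1 (0.93) and Sdc3 (0.92) in hip caps, with Spearman's rho as low as 0.49 for Sdc3. Without the 2 farthest libraries these were 0.91, 0.79 and 0.81 in metatarsals and 0.80, 0.88 and 0.56 in hip caps. No gene was among the nearest 3 in both tissues.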

How the data were processed

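RNA was depleted of ribosomal RNA and sequenced in 24 libraries. The deposited values are estimated counts per gene, which the authors made by trimming with TrimGalore (0.6.5), quantification with kallisto and summing with tximport (GRCm39), and 27% of values were not whole. Counts were rounded and tested with edgeR (4.0.16, R 4.3.3) by the quasi-likelihood test with TMM scaling, filterByExpr, and terms for group, sequencing run and library type, on the 22 libraries used by the study, with Benjamini-Hochberg adjustment over 21283 genes, a threshold of 0.05 and two-sided tests. SE is the absolute log2 fold change over the root of F. Sequencing runs were taken from the study's clustering plot, which gives 9 and 15 libraries where the methods count otherwise, so it is uncertain. Low RNA integrity and mixed strandedness (6 unstranded libraries) can shift levels; without strand, overlapping genes cannot be told apart. By the methods each hip cap library is 1 mouse; whether metatarsal pools came from separate litters is not given in the sources used here, so their p-values measure the spread between pools. Total counts were 4185241 to 25104240. Lengths came from GENCODE M21, of another build, and sequences from RefSeq. Named genes were all 10, the 2 highest and 2 lowest changed genes of each further list, the 2 most abundant of each marker list, and the 3 most like Prg4 and Gdf5. The genes and lists were chosen with earlier results of these data known. DESeq2 (1.42.0) and the alternatives of the closing section were also run, and the test was tested on simulated data.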

Additional observations from a re-analysis of the deposited data

Results flagged for a closer look

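In groups of 4 libraries, those left out by the study included, 13 of 60 gene and group pairs held a library apart from the other 3 by more than Dixon's 95% limit, where chance gives about 3. That expected number assumes normal and independent values, but the same libraries recur across the genes. The libraries left out were also already outliers of the study. In metatarsals these were Prg4 in control replicate 3 (201 CPM, others 5.74 to 20.9) and in replicate 4 at 50 MPa (61.3 CPM, others 18.1 to 23.3), and Osr2 in control replicate 4 (68.1 CPM) and in replicate 3 at 5 MPa (56.8 CPM). In hip caps used they were Barx1 in replicate 4 at 50 MPa (20.7 CPM, others 8.86 to 10.2) and Dact2 in replicate 2 at 5 MPa (0.422 CPM). In the hip cap control left out they were Gdf5 (6.15 CPM, others 2.55 to 2.99), Osr1 (5.73 CPM, others 0.318 to 0.815) and Col22a1 (18.9 CPM, others 3.82 to 6.25).

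The hip cap left out at 50 MPa was above all 4 hip cap controls for 7 of the 10 genes, as for 37.8% of all 21283 genes tested, with 6.45 CPM of Gdf5, 7.55 of Gdf6, 9.59 of Osr1, 10.2 of Osr2, 6.29 of Dact2, 25.0 of Col22a1 and 7.39 of Wnt9a. Gdf6, Osr1, Dact2 and Col22a1 in it also stood apart from the other 3 libraries at 50 MPa. These were the 7 genes that were lower in hip caps than in metatarsals. Its sum of 10 muscle genes was 120 CPM, against 10.1 to 45.0 in the hip caps used, and its chondrocyte sum was 14620 CPM, against 22259 to 78924. The part of tissue content in these levels was not tested.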

How the results depend on the processing

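Alternatives were run for the 10 genes. Of the number past the threshold, the values that moved were as follows. With at least 10 counts in every library, which leaves 6 of the genes, 5 passed between tissues at each pressure. With all 24 libraries, 5 passed at 50 MPa. In hip caps, 1 passed at 5 MPa without batch terms or with library type alone, and 1 at 50 MPa with DESeq2, each time Osr1. Leaving out 1 library gave 5 to 9 between tissues at 0 MPa, 9 to 9 at 5 MPa and 3 to 8 at 50 MPa, 0 to 1 in hip caps at 50 MPa and in the difference of response at 50 MPa, and 0 in the others. Over all genes, 944 were called higher and 1083 lower in hip caps at 5 MPa without batch terms, 572 and 590 with library type alone, and DESeq2 called 415 and 170 (edgeR 2 and 2) and 1488 and 886 at 50 MPa (edgeR 706 and 396). Other edgeR fits at 50 MPa called 440 and 410 without batch terms and 2 and 0 with all 24 libraries. With hip caps alone and no batch terms, 0 of 18001 genes were called at 50 MPa.

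Direction reversed as follows, counting an uncalled value only where it moved by more than 1 SE from the value reported; of the rest, the cause was not tested. Erg between tissues at 0, 5 and 50 MPa was -0.65, -0.52 and -0.77 with library sizes alone, and at 0 and 50 MPa -0.28 and -0.20 with all 24 libraries and -0.08 and -0.04 with these and no batch terms, a setting chosen after seeing the data, under which Dact2 at 50 MPa was 0.35. In hip caps at 5 MPa, Erg was 0.41 with library sizes alone; with all 24 libraries Gdf5 was -0.45, Erg 0.53, Barx1 0.05, Osr1 -0.44, Dact2 0.90 and Col22a1 -0.29, and without batch terms too Erg 0.26 and Osr1 -0.05. Wnt9a at 50 MPa was 0.65 and 0.92 under these settings, and the Osr1 difference of response at 5 MPa -0.16 and -0.06. With library sizes alone in metatarsals, Osr1 was 0.20 and Osr2 0.23 at 5 MPa, and Osr1 0.19 and Wnt9a 0.11 at 50 MPa. Without 1 library, Erg between tissues at 50 MPa ran from -0.03 to 0.38. In hip caps at 5 MPa, Prg4 ran from -2.76 (hip cap control replicate 3) to 3.22 and Gdf6 from -0.27 to 2.46. In hip caps at 50 MPa, Gdf5 ran from -0.48 to 0.56, Osr2 from -0.31 to 0.37, Erg from -0.16 to 0.24 and Prg4 from -5.37 to 0.51. In metatarsals, Osr2 ran from -0.13 to 0.26 at 5 MPa and Prg4 from -1.90 to 0.86 at 50 MPa.

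Replicate numbers did not pair the libraries (r of deviations -0.37 to 0.29), and with the replicate block 9, 9 and 9 passed between tissues and 0 elsewhere, with Dact2 at 50 MPa at -2.03 (adjusted p = 0.0350, edgeR). Of all 21283 genes, the fit with that block called 2826 higher and 3264 lower between tissues at 0 MPa, 3887 and 3917 at 5 MPa, and 2086 and 1909 at 50 MPa. In hip caps it called 138 and 38 at 5 MPa and 939 and 448 at 50 MPa. Depth limits Gdf6, Dact2, Osr1 and Wnt9a in hip caps, where counts were low.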

Other observations

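The markers of other cell types not yet described were as follows. Fmod and Mkx led 5 tendon genes, of which 1 was higher and 3 lower in hip caps at 0 MPa. The most abundant muscle genes, Ttn and Myh3, ranged from 4.89 to 35.1 and from 0.191 to 2.17 CPM in hip caps and from 291 to 1921 and from 47.5 to 226 CPM in metatarsals, where Col22a1 was also higher. Of 10 muscle genes, 10 were lower in hip caps at 0 MPa, 9 at 5 MPa and 8 at 50 MPa. Spp1 ranged from 1774 to 3958 CPM in hip caps and from 24.6 to 61.9 in metatarsals. The platelet genes Itga2b and Pf4 stayed at or below 10.1 CPM. In the hip caps used, Tnmd and Kera were among the tendon genes listed at 0.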
